A study of Mus musculus with 12 samples.

Results

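Transcripts that mark the structural cells of the lung were followed in RNA from CD11b dendritic cells (DCs), which present antigen and are named for the integrin on their surface. The set holds 46 genes, chosen by symbol from the 24391 rows of the count table: 15 endothelial, 15 mesenchymal and 16 epithelial genes. All 46 symbols were in the table, and 45 passed the filter on low counts. Lum did not pass it. The tests were run over all 13221 genes that passed.

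The 12 libraries came from wild-type C57BL/6J mice aged 8 to 12 weeks that had all been given a replication-deficient adenovirus into the trachea. The control vector, AdCL, carried no inserted gene, and AdTGFb1 carried the pig gene for TGF-β1 in a form that yields active protein. The series title speaks of established lung fibrosis. Control mice were thus exposed to adenovirus too, and no group without a vector was analysed here. Experiment 1 holds AdCL DC 7, 8 and 9 and AdTGFb1 DC 14, 52 and 54. Experiment 3 holds AdCL DC 943, 944 and 949 and AdTGFb1 DC 954, 955 and 956. Below, the 3 values of a group always follow the order of these DC numbers. The sources used here give neither the sort gate, nor the interval between vector and harvest, nor the animals' sex, and do not say whether each library is a separate animal, so p-values measure the spread between libraries.

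Endothelial cells line the blood vessels of the lung, hold together through cadherin and claudin junctions, and respond to growth factors through receptors such as VEGFR2 and TIE2. Mesenchymal cells, among them fibroblasts, smooth muscle cells and pericytes, make the collagens and elastic fibres of the lung, and TGF-β1 is known to drive them to make more matrix. Epithelial cells cover the airways and the alveoli: club cells secrete secretoglobin, alveolar type 2 cells make surfactant, and the flat alveolar type 1 cells carry out gas exchange. None of these cells is a DC, although Pecam1, Eng, Esam, Epcam and Cdh1 are also known from myeloid cells.

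Libraries held between 10099912 and 15594546 counts, at which 3 counts, used as the floor for a gene with none, equal 0.181 to 0.31 CPM (counts scaled to library depth, here with TMM library sizes). Markers of the labelled cell far exceeded the structural genes: 10 CD11b DC genes summed to between 18610 and 36780 CPM in every library, against 445.6 to 2094 CPM for the 46 structural genes. They did not exceed the markers of all other cells by every measure. By the median gene of each list, 10 monocyte and macrophage genes lay below the DC genes in every AdCL library. In every AdTGFb1 library they lay above them. The share of each cell type in the RNA was not tested. Xist of at most 2.29 CPM and Ddx3y of 120.5 to 225 CPM marked AdCL DC 7, 8 and 9 and AdTGFb1 DC 14 as male. In the other 8, Ddx3y had no count and Xist was at 1126 CPM or more. All controls of experiment 1 were therefore male and all of experiment 3 female. In the fit with a mean for each group, a term for sex rests on the AdTGFb1 libraries of experiment 1, the only group with both sexes. In the fit over both experiments, which has no term for the difference between vector effects, the sex term also draws on the male controls. It can there take up part of that difference.

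The stretch of 250 bases before the start of the gene was taken from RefSeq (GRCm38.p6) for the 29 members found in its promoter table. The counts were made on mm9, so no coordinate below belongs to the count table. Promoters of 3 genes are shown, 1 per class, because their levels carry the results that follow. Tie1 had the largest fitted fall with AdTGFb1 in experiment 1 among endothelial members. Col3a1 fell in experiment 1 and rose in experiment 3. Sftpb is a surfactant gene that was low in the AdTGFb1 libraries of experiment 1. Each is written 5′ to 3′ on the strand of its gene. Capitals mark the ETS core (AGGAAG or CGGAAG, on either strand) in Tie1 and Col3a1, and the NKX2-1 core (CTCAAG, on either strand) in Sftpb.
Tie1, chr4:118489850-118490099, minus strand: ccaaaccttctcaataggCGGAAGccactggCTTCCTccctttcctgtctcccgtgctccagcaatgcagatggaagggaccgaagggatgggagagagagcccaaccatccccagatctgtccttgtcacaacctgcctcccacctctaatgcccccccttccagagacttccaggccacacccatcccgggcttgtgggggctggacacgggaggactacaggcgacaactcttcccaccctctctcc
Col3a1, chr1:45311288-45311537, plus strand: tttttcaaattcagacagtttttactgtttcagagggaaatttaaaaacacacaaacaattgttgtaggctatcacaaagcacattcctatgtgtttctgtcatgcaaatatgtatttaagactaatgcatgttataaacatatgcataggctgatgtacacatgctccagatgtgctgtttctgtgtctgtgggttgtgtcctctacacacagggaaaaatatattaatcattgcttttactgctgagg
Sftpb, chr6:72304360-72304609, plus strand: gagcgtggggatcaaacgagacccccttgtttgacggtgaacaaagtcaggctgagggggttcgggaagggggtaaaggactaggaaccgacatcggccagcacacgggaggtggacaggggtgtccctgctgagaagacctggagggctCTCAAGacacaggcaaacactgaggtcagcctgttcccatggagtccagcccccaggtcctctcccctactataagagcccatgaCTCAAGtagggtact

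Tie1 held 2 ETS cores and Col3a1 none. ETS cores were in 5 of 9 endothelial promoters (55.6%), 1 of 8 mesenchymal (12.5%) and 5 of 12 epithelial ones (41.7%), against 42.5% of the 27025 promoters in the table. Sftpb held 2 NKX2-1 cores. They were in 3 of 12 epithelial promoters (25%), namely Sftpa1, Sftpb and Hopx, in 1 of 9 endothelial and in 2 of 8 mesenchymal ones, against 15.2% of all. The CArG box, the element of serum response factor, was in 2 of 12 epithelial promoters (Ager and Hopx) and in no endothelial or mesenchymal one, against 1.62% of all. A CArG box that ends in AGG can share these letters with an AGGAAG core. A match describes letters only.

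The clearest feature was a high level of endothelial and mesenchymal members in the controls of experiment 1, most of all in AdCL DC 8. Endothelial members summed to 397.3, 897.1 and 586.7 CPM in AdCL of experiment 1 and to 233, 191 and 180.3 CPM in AdTGFb1. In experiment 3 they summed to 237.1, 310.8 and 233 CPM in AdCL and to 301.7, 338.4 and 280.7 CPM in AdTGFb1. Every control of experiment 1 thus lay above the other 9 libraries, while the vectors of experiment 3 overlapped. In bulk RNA, fewer cells of a type and less RNA per cell cannot be told apart.

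Mesenchymal members summed to 234.9, 627.5 and 313.7 CPM in AdCL and 66.4, 145.3 and 79.1 CPM in AdTGFb1 of experiment 1. In experiment 3 the sums were 74.4, 112.8 and 66.9 CPM in AdCL and 70.6, 228.8 and 136.3 CPM in AdTGFb1. The controls of experiment 1 were again above the other 9, although AdCL DC 7 was only just above AdTGFb1 DC 955. Epithelial members summed to 159.1, 569 and 228.7 CPM in AdCL and 194.7, 321.6 and 187.4 CPM in AdTGFb1 of experiment 1, so those groups overlapped. In experiment 3 they summed to 134.1, 205.3 and 145.9 CPM and to 104.3, 174.6 and 124.8 CPM. Without Scgb1a1, which made up much of AdCL DC 8, the epithelial mean was 199.8 ± 51.6 CPM in AdCL and 230.8 ± 77.9 CPM in AdTGFb1 of experiment 1 (SD, n = 3).

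**Figure D1:**
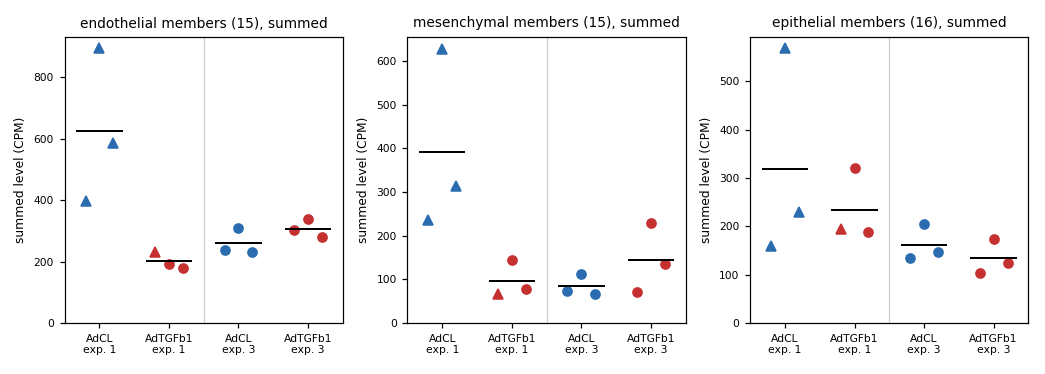
Summed CPM of the 15 endothelial, 15 mesenchymal and 16 epithelial members in each library (vertical axis, linear from 0) by vector and experiment (horizontal axis). Blue is AdCL, red AdTGFb1, male libraries are triangles, female ones circles, and bars are means of 3; the endothelial controls of experiment 1 lie at 397.3 to 897.1 CPM, above all others.

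The first question was what AdTGFb1 did to these transcripts within each experiment, tested with edgeR's quasi-likelihood test and Benjamini-Hochberg adjustment over all genes. In experiment 1, 13 of 15 endothelial members fell and none rose, 7 of 14 tested mesenchymal members fell and none rose, and 7 of 16 epithelial members fell while Cdh1 rose. Of all genes tested, 24.7% were called there, 14.1% lower and 10.6% higher. The median log2 fold change was -3.47 for endothelial, -1.89 for mesenchymal and -2.35 for epithelial members, against -0.03 for all genes. At an unadjusted p under 0.05, 0 endothelial, 0 mesenchymal and 1 epithelial member were higher, and DESeq2 called the same numbers. With the term for sex 7 endothelial and 3 epithelial members fell. Without AdTGFb1 DC 54 the epithelial count was 4.

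Markers of other cells moved in the same contrast. The 10 CD11b DC genes summed to 28710 to 31710 CPM in AdCL and 18610 to 22820 CPM in AdTGFb1 of experiment 1, and 7 of them fell while 2 rose. The 10 monocyte and macrophage genes summed to 3783 to 4429 CPM in AdCL and 8290 to 10700 CPM in AdTGFb1, and 8 rose while none fell. Of all genes, 14.1% fell and 10.6% rose in that experiment. In experiment 3, where 2 of the 46 members were called, 5 of the DC genes fell and 1 rose, and 9 of the monocyte and macrophage genes rose. The shares of all genes were 4.46% lower and 1.97% higher. The DC genes then summed to 27190 to 36780 CPM in AdCL and 23750 to 29740 CPM in AdTGFb1, and the monocyte and macrophage genes to 6880 to 8333 and 13840 to 17870 CPM. The part of these shifts in the levels of the 46 members was not tested.

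In experiment 3 the same contrast called 2 members: Col3a1 and Eln, both mesenchymal, rose. No endothelial or epithelial member was called, against 6.43% of all genes (1.97% higher, 4.46% lower). At an unadjusted p under 0.05, 3 endothelial members were higher and 1 lower, 4 mesenchymal members were higher, and 1 epithelial member was lower. DESeq2 called 1 endothelial member lower, 3 mesenchymal members higher and no epithelial member lower. Medians were 0.59, 0.33 and -0.20 on the log2 scale for endothelial, mesenchymal and epithelial members, against 0.00 for all genes. The count of mesenchymal rises was 4 without AdCL DC 944 and 1 without AdCL DC 949, AdTGFb1 DC 955 or AdTGFb1 DC 956. The endothelial count was 2 higher without AdCL DC 944, 1 higher without AdTGFb1 DC 954 and 1 lower without AdTGFb1 DC 956.

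The effect in experiment 3 minus that in experiment 1, called the difference below, was itself tested. It was positive and passed for 8 of 15 endothelial, 8 of 14 mesenchymal and 2 of 16 epithelial members, and negative for Cdh1. In all genes 3.43% passed with a positive and 2.59% with a negative difference, 6.02% in all. Medians were 3.73, 2.82 and 2.00, against 0.02 for all genes. With the term for sex 4 endothelial members passed and 1 epithelial member had a positive difference. Without 1 library the mesenchymal count fell to 4 (AdCL DC 8 or 949) or 5 (AdTGFb1 DC 14, 54 or 955, or AdCL DC 943). The epithelial count was 4 without AdCL DC 7 and 1 without AdTGFb1 DC 54 or 955 or AdCL DC 943 or 949. This contrast shares its libraries with those within each experiment.

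**Figure D2:**
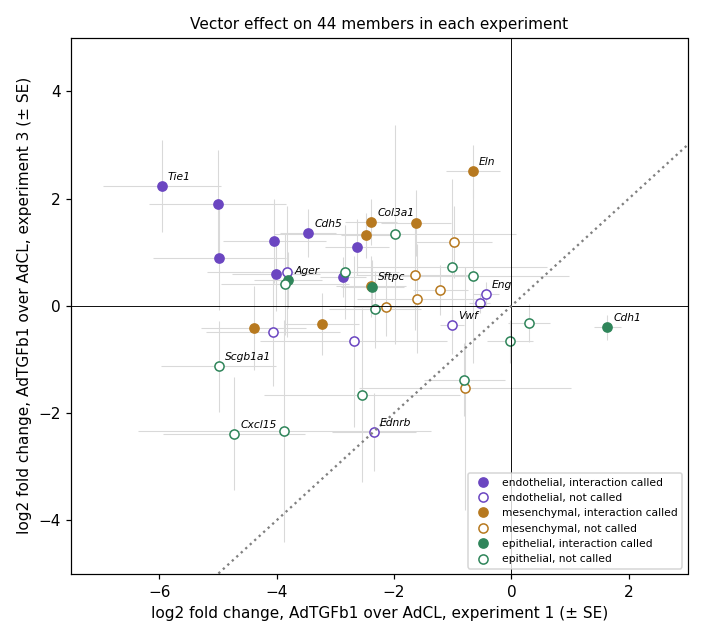
Log2 fold change of AdTGFb1 over AdCL in experiment 1 (horizontal) and experiment 3 (vertical) with standard errors, for 44 members (Inmt, at 0 in a whole group, and Lum, filtered out, are not drawn). Krt8, also at 0 in AdTGFb1 of experiment 1, is among the 44, and its fitted value there depends on the prior count. Filled symbols passed the test of the difference between experiments and the dotted line marks equal effects; Tie1 lies at -5.96 and 2.24, and Cdh1, to the right, at 1.63 and -0.40.

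Over both experiments, with the experiment as a term, 2 endothelial, 2 mesenchymal and 2 epithelial members fell and none rose, against 17.2% of all genes (10.4% lower, 6.78% higher). They were Ednrb, Vwf, Inmt, Mfap4, Scgb1a1 and Cxcl15. At an unadjusted p under 0.05, 4 members of each class were lower and 0 higher, and DESeq2 called 3 endothelial, 2 mesenchymal and 2 epithelial members lower and 0 of any class higher. With the term for sex the counts were 1, 0 and 1. The epithelial count was 1 without AdCL DC 8 or AdTGFb1 DC 14, 52 or 54. The mesenchymal count was 0 without AdTGFb1 DC 14, 52 or 54, and 1 without AdCL DC 7, 8, 9 or 944 or AdTGFb1 DC 954 or 956. It was 5 without AdTGFb1 DC 955.

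The second question was how the experiments differed within a vector. Between controls, 6 endothelial, 9 mesenchymal and 1 epithelial member were lower in experiment 3 than in experiment 1, and none was higher, against 9.02% of all genes (4.89% lower, 4.13% higher). At an unadjusted p under 0.05, 11, 13 and 4 members were lower and 0 higher, and DESeq2 called 0 higher. With the term for sex the counts were 0, 1 and 0. The controls of experiment 1 were all male and those of experiment 3 all female, so sex and experiment cannot be told apart in these controls. Without AdCL DC 8 the endothelial count was 2. The mesenchymal count was 5 without AdCL DC 8, 9, 943 or 949, and the epithelial count was 2 without AdCL DC 7 or 9.

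Between AdTGFb1 libraries, 4 endothelial, 2 mesenchymal and 3 epithelial members were higher in experiment 3, and 2 epithelial members, Cdh1 and Hopx, were lower, against 7.81% of all genes (4.61% higher, 3.2% lower). The endothelial count was 0 without AdTGFb1 DC 54 and 1 without AdTGFb1 DC 955 or 956. The mesenchymal count was 1 without AdTGFb1 DC 14, 54 or 955. The epithelial count of higher members was 1 without AdTGFb1 DC 54, and that of lower members was 1 without AdTGFb1 DC 52, 54, 954 or 956. No endothelial or mesenchymal member was called lower. At an unadjusted p under 0.05, 0 endothelial and 2 mesenchymal members were lower, and DESeq2 called 0 of either lower.

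Among endothelial junction genes, Cdh5, the VE-cadherin of vessel walls, lay at 60.8, 196 and 113 CPM in AdCL and at 16.4, 7.59 and 9.42 CPM in AdTGFb1 of experiment 1. In experiment 3 it was at 10.0, 19.1 and 4.49 CPM in AdCL and at 15.8, 45.0 and 25.0 CPM in AdTGFb1. The controls of experiment 1 were above all others, as for 8.18% of all genes, and in experiment 3 the vectors overlapped. In experiment 1 Cdh5 fell by 3.47 ± 0.47 on the log2 scale (SE, adjusted p = 1.23e-05). In experiment 3 its fold change was 1.36 ± 0.45 (adjusted p = 0.0768), and the difference of 4.82 ± 0.65 passed (adjusted p = 0.000126). Cldn5, the claudin that seals endothelial tight junctions, was at 8.27, 19.4 and 6.69 CPM in AdCL and at 1.06, 0 and 0 CPM in AdTGFb1 of experiment 1, with adjusted p = 0.00288. Levels in experiment 3 were 0.385, 2.44 and 0.938 CPM in AdCL and 6.35, 4.87 and 3.02 CPM in AdTGFb1, where the vectors did not overlap but the test was not passed (adjusted p = 0.329). Every AdTGFb1 library was above every control of experiment 3 for 11.5% of all genes. The call of Cldn5 in experiment 1 was lost with the term for sex (adjusted p = 0.126).

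Pecam1, the adhesion molecule CD31 of endothelium, platelets and leukocytes, was at 35.0, 121 and 86.7 CPM in AdCL and 17.6, 8.23 and 7.36 CPM in AdTGFb1 of experiment 1. Experiment 3 gave levels of 17.0, 26.2 and 15.8 CPM in AdCL and 20.9, 34.7 and 30.4 CPM in AdTGFb1. The fall in experiment 1 was 2.87 ± 0.39 on the log2 scale (adjusted p = 1.21e-05). Experiment 3 gave 0.54 ± 0.37 (adjusted p = 0.487). AdTGFb1 libraries of experiment 3 were higher than those of experiment 1 by 1.37 ± 0.38 (adjusted p = 0.0254), a call lost without AdTGFb1 DC 52, 54, 955 or 956 (adjusted p from 0.0754 to 0.125).

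The receptor tyrosine kinases Tie1, Tek and Kdr all fell in experiment 1. Tie1, an orphan partner of TIE2, was at 10.8, 46 and 7.44 CPM in AdCL and 0, 0.859 and 0.138 CPM in AdTGFb1 of experiment 1. In experiment 3 the levels were 0.481, 1.95 and 0.402 CPM in AdCL and 3.28, 5.03 and 5.19 CPM in AdTGFb1. The order of the vectors was opposite in the 2 experiments, without overlap in either. Such non-overlap was seen for 21.6% of all genes with AdTGFb1 lower in experiment 1. With AdTGFb1 higher in experiment 3 it was seen for 11.5%. Only the fall of Tie1 in experiment 1 passed. That fall was 5.96 ± 1.01 on the log2 scale (adjusted p = 0.000135), against a fold change of 2.24 ± 0.86 in experiment 3 (adjusted p = 0.14). The difference was 8.20 ± 1.31 (adjusted p = 0.0006).

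Tek, the angiopoietin receptor TIE2, was at 8.68, 35.9 and 17.5 CPM in AdCL and 0.606, 2.72 and 0.413 CPM in AdTGFb1 of experiment 1. The libraries of experiment 3 held 1.54, 8.63 and 0.603 CPM in AdCL and 6.07, 13.7 and 5.07 CPM in AdTGFb1, and the vectors overlapped. The difference between the effects was 5.25 ± 1.16 (adjusted p = 0.00808, 0.0837 with the term for sex). Kdr, the VEGF receptor VEGFR2, was at 11.6, 66.9 and 28.9 CPM in AdCL and 5.30, 3.01 and 9.01 CPM in AdTGFb1 of experiment 1. Values in experiment 3 were 4.14, 7.49 and 11.9 CPM in AdCL and 16.5, 23.0 and 11.4 CPM in AdTGFb1. Kdr fell by 2.63 ± 0.54 on the log2 scale in experiment 1 (adjusted p = 0.000989, 0.0527 with the term for sex), and AdCL DC 8 held more than any other library.

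Of the other signalling genes, Egfl7, a secreted vessel guidance factor, was at 7.24, 43.4 and 19.2 CPM in AdCL and 1.51, 0.716 and 2.06 CPM in AdTGFb1 of experiment 1, and in experiment 3 at 0.769, 5.37 and 2.48 CPM in AdCL and 2.30, 4.71 and 5.98 CPM in AdTGFb1. It fell by 4.01 ± 0.75 in experiment 1 (adjusted p = 0.000389), and the controls there were above all 9 other libraries, as for 8.18% of all genes. Its exons overlap those of Mir126a, Mir126b and Agpat2 in the table, so its reads are uncertain. Ramp2, a partner of the adrenomedullin receptor, was at 1.24, 21.2 and 16.1 CPM in AdCL and 0, 0.358 and 0.825 CPM in AdTGFb1 of experiment 1. Experiment 3 showed it at 0.962, 2.20 and 1.54 CPM in AdCL and 0.837, 5.35 and 2.60 CPM in AdTGFb1. Its difference of 5.87 ± 1.47 passed (adjusted p = 0.0184) but not without AdCL DC 8 (adjusted p = 0.0726). Ramp2 shares 1103 exon bases with Vps25 on the same strand and is uncertain too.

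Robo4, a guidance receptor of vessels, was at 14.8, 18.9 and 5.02 CPM in AdCL and 1.51, 0.788 and 0 CPM in AdTGFb1 of experiment 1, and fell there (adjusted p = 0.0112, 0.279 with the term for sex). Levels in experiment 3 were 0.481, 4.64 and 1.14 CPM in AdCL and 0.419, 3.19 and 0.906 CPM in AdTGFb1, with overlap. Ednrb, an endothelin receptor, was the only endothelial member with all AdTGFb1 libraries below all controls in experiment 3. It was at 14.0, 14.3 and 9.21 CPM in AdCL and 0.909, 4.37 and 2.06 CPM in AdTGFb1 of experiment 1. Experiment 3 gave levels of 6.35, 4.72 and 5.43 CPM in AdCL and 0.698, 0.399 and 2.05 CPM in AdTGFb1. All AdTGFb1 libraries lay below all controls of their own experiment. That order was seen for 21.6% of all genes in experiment 1 and 12.9% in experiment 3. Vwf, Robo4 and Emcn also had lower means with AdTGFb1 in experiment 3, but with overlap. The fold changes of Ednrb were -2.35 ± 0.71 and -2.36 ± 0.73 (adjusted p = 0.0188 and 0.0542), and over both experiments -2.35 ± 0.50 (adjusted p = 0.00295). The call in experiment 1 was lost with the term for sex and without AdCL DC 7 or 8 or AdTGFb1 DC 14 or 54 (adjusted p from 0.0501 to 0.0781), while the call over both experiments was kept in each of these.

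The 3 endothelial members with the highest CPM varied least. Acvrl1, the TGF-β family receptor ALK1, was at 101, 124 and 105 CPM in AdCL and 90.1, 78.3 and 59.1 CPM in AdTGFb1 of experiment 1. Its experiment 3 levels were 82.9, 104 and 94.6 CPM in AdCL and 99.6, 92.2 and 99.7 CPM in AdTGFb1. It fell by 0.54 ± 0.18 on the log2 scale in experiment 1 (adjusted p = 0.0269), a call lost with the term for sex and without AdCL DC 7, 8 or 9 or AdTGFb1 DC 52 or 54 (adjusted p from 0.0512 to 0.486). Eng, endoglin, a co-receptor of TGF-β, was at 45.1, 80.5 and 66.3 CPM in AdCL and 55.5, 40.5 and 45.4 CPM in AdTGFb1 of experiment 1. The libraries of experiment 3 held 53.2, 62.0 and 52.8 CPM in AdCL and 78.8, 65.3 and 51.4 CPM in AdTGFb1, and it passed in none of the 6 comparisons. Part of its exons overlaps Fpgs.

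Vwf, the clotting factor that endothelium and platelets store, was at 73.4, 85.3 and 98.3 CPM in AdCL and 42.1, 40.4 and 44.6 CPM in AdTGFb1 of experiment 1. Values in experiment 3 were 58.4, 57.0 and 39.9 CPM in AdCL and 45.5, 38.3 and 36.5 CPM in AdTGFb1. Vwf fell by 1.02 ± 0.20 in experiment 1 (adjusted p = 0.000685) and by 0.69 ± 0.16 over both (adjusted p = 0.00571, 0.0519 with the term for sex). In experiment 3 the vectors overlapped (adjusted p = 0.351). Itga2b, an integrin of platelets, was at 18.7 to 32.8 CPM in the controls of experiment 1 and at most 3.91 CPM elsewhere. Of 5 tested platelet genes only Itga2b was called in experiment 1, against 24.7% of all genes. The 6 platelet genes summed to 42.9 to 66.4 CPM in those controls, 16.1 to 28.9 CPM in AdTGFb1 of experiment 1, 39.0 to 44.5 CPM in AdCL and 29.0 to 35.6 CPM in AdTGFb1 of experiment 3. Gp9 and Gp1ba were at 0 in all AdTGFb1 libraries of experiment 3. The part of platelet RNA in the levels of Vwf and Pecam1 was not tested.

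The remaining endothelial members were low. Esam, a junction protein of endothelium and platelets, reached at most 18.1 CPM and fell in experiment 1 (adjusted p = 0.0431), a call lost with the term for sex and without AdCL DC 8 or AdTGFb1 DC 14 or 54 (adjusted p from 0.0612 to 0.245). Emcn, endomucin of capillaries and veins, was between 0 and 6.47 CPM and passed in no comparison.

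**Figure D3:**
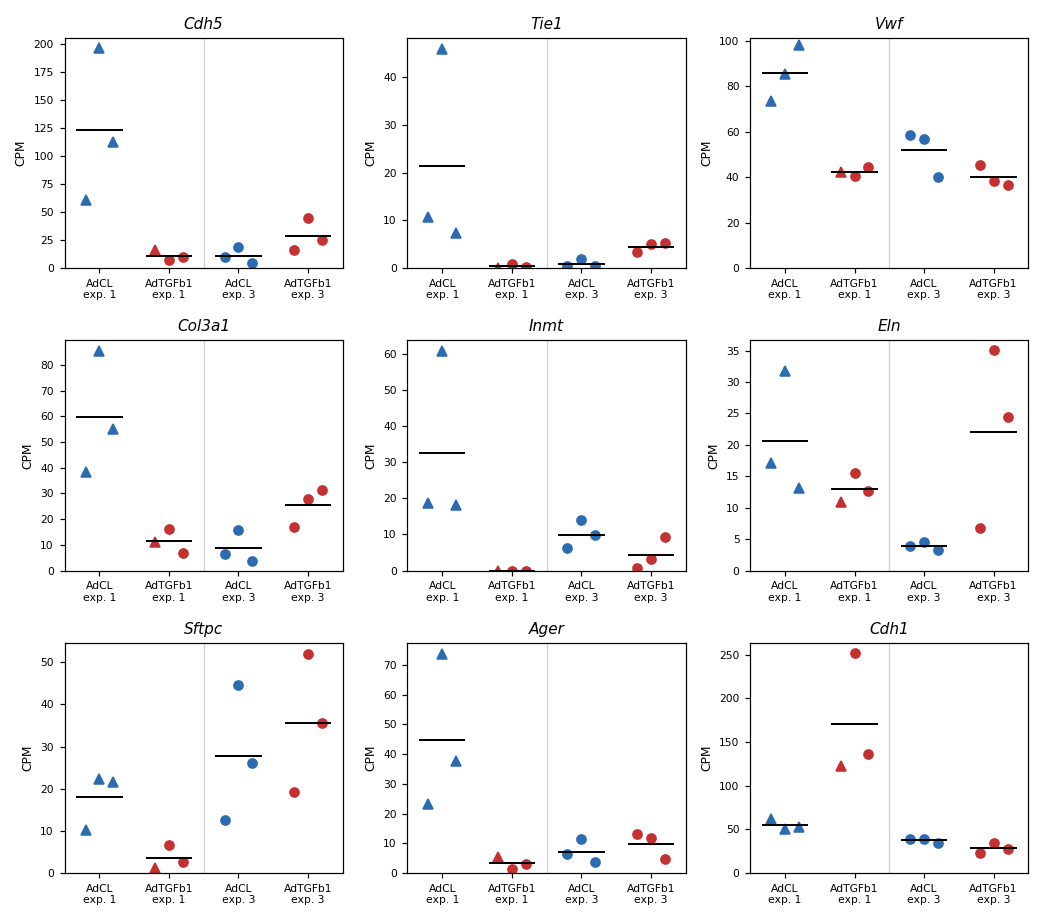
CPM of 9 members (vertical axes, linear from 0) by vector and experiment, each symbol 1 library (blue AdCL, red AdTGFb1, triangle male, circle female) and bars the means of 3. Cdh5, Tie1, Col3a1, Inmt and Ager are highest in the controls of experiment 1, Eln rises with AdTGFb1 in experiment 3, and Cdh1 is highest in AdTGFb1 of experiment 1 (123 to 252 CPM).

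Among the collagens, Col3a1, the fibrillar collagen of soft tissue, was at 38.4, 85.5 and 55.2 CPM in AdCL and 11.1, 16.0 and 7.01 CPM in AdTGFb1 of experiment 1, and in experiment 3 at 6.44, 15.9 and 3.55 CPM in AdCL and 16.8, 27.8 and 31.5 CPM in AdTGFb1. The vectors did not overlap in either experiment, and their order was opposite. Non-overlap with AdTGFb1 lower in experiment 1 was seen for 21.6% of all genes, and with AdTGFb1 higher in experiment 3 for 11.5%. Col3a1 fell by 2.39 ± 0.44 on the log2 scale in experiment 1 (adjusted p = 0.000334) and rose by 1.56 ± 0.43 in experiment 3 (adjusted p = 0.0305). The rise was lost without AdCL DC 943 or 949 or AdTGFb1 DC 955 or 956 (adjusted p from 0.0597 to 0.139). The difference of 3.95 ± 0.62 had adjusted p = 0.00049.

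The chains of collagen I passed in no vector contrast. Col1a1 was at 14.6, 35.8 and 30.2 CPM in AdCL and 11.4, 24.6 and 4.81 CPM in AdTGFb1 of experiment 1. In experiment 3 it was at 3.17, 7.41 and 4.36 CPM in AdCL and 1.33, 24.5 and 8.46 CPM in AdTGFb1, with overlap in both. Col1a2 was at 18.0, 40.7 and 24.4 CPM in AdCL and 6.89, 20.6 and 8.39 CPM in AdTGFb1 of experiment 1. Levels in experiment 3 were 4.42, 3.42 and 6.97 CPM in AdCL and 4.54, 7.99 and 5.68 CPM in AdTGFb1. The log2 fold changes of Col1a1 were -0.98 ± 0.66 in experiment 1 and 1.19 ± 0.68 in experiment 3 (adjusted p = 0.296 and 0.373). Those of Col1a2 were -1.21 ± 0.46 and 0.29 ± 0.47 (adjusted p = 0.0598 and 0.827), so the signs were those of Col3a1. Both were lower in the controls of experiment 3 than of experiment 1, by 2.43 ± 0.69 and 2.48 ± 0.49 (adjusted p = 0.0295 and 0.0025). Neither call was kept with the term for sex (adjusted p = 0.396 and 0.0897). Col1a1 also missed with DESeq2 (adjusted p = 0.0539) and without AdCL DC 8, 9, 943 or 949 (adjusted p from 0.065 to 0.105).

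Of the elastic fibre genes, Eln, elastin itself, was at 17.1, 31.7 and 13.1 CPM in AdCL and 11.0, 15.5 and 12.7 CPM in AdTGFb1 of experiment 1, with overlap. Experiment 3 gave levels of 3.94, 4.48 and 3.22 CPM in AdCL and 6.70, 35.1 and 24.4 CPM in AdTGFb1. It rose by 2.51 ± 0.49 in experiment 3 (adjusted p = 0.00245), a call that no single left-out library removed, with AdTGFb1 DC 954 far below DC 955 and 956. The difference was 3.17 ± 0.67 (adjusted p = 0.00584, 0.072 with the term for sex). Fbn1, the microfibril protein fibrillin, was at 14.5, 34.5 and 16.3 CPM in AdCL and 3.33, 9.52 and 8.32 CPM in AdTGFb1 of experiment 1. In experiment 3 the levels were 5.10, 0.814 and 1.88 CPM in AdCL and 10.3, 8.62 and 3.68 CPM in AdTGFb1. Its fold change of -1.62 ± 0.60 missed the threshold in experiment 1 (adjusted p = 0.0502), while the difference passed (3.17 ± 0.85, adjusted p = 0.0278). That call was lost with the term for sex and without AdCL DC 8 or 949 or AdTGFb1 DC 14 or 954 (adjusted p from 0.0534 to 0.0969).

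Mfap4, a microfibril-associated protein, was at 13.3, 36.0 and 17.8 CPM in AdCL and 2.20, 3.37 and 1.58 CPM in AdTGFb1 of experiment 1. The libraries of experiment 3 held 5.87, 7.25 and 4.15 CPM in AdCL and 1.74, 9.10 and 2.90 CPM in AdTGFb1. It fell in experiment 1 by 3.23 ± 0.62 (adjusted p = 0.000535), with no overlap (as for 21.6% of all genes), and over both by 1.78 ± 0.59 (adjusted p = 0.0457). The latter was lost with the term for sex and without AdCL DC 7, 8, 9 or 944 or AdTGFb1 DC 14, 52, 54, 954 or 956 (adjusted p from 0.0604 to 0.348). Its exons overlap Mapk7 on the opposite strand.

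Sparc, Bgn and Mgp, matrix proteins outside the fibres, fell in experiment 1. Sparc, a collagen-binding matricellular protein, was at 40.6, 88.6 and 32.3 CPM in AdCL and 7.20, 11.5 and 10.3 CPM in AdTGFb1 of experiment 1. Values in experiment 3 were 10.3, 17.4 and 5.90 CPM in AdCL and 16.7, 44.3 and 22.9 CPM in AdTGFb1. It fell by 2.48 ± 0.43 in experiment 1 (adjusted p = 0.000193) and had 1.32 ± 0.42 in experiment 3 (adjusted p = 0.0631), with a difference of 3.80 ± 0.60 (adjusted p = 0.000539). Bgn, the small proteoglycan biglycan, was at 21.6, 73.7 and 41.0 CPM in AdCL and 2.42, 18.5 and 10.0 CPM in AdTGFb1 of experiment 1, and in experiment 3 at 12.3, 15.3 and 12.3 CPM in AdCL and 5.30, 23.2 and 10.8 CPM in AdTGFb1. Mgp, an inhibitor of calcification, was at 17.7, 61.9 and 17.3 CPM in AdCL and 2.05, 8.95 and 7.43 CPM in AdTGFb1 of experiment 1. Experiment 3 showed it at 11.8, 12.0 and 11.5 CPM in AdCL and 4.75, 28.5 and 12.3 CPM in AdTGFb1. Bgn and Mgp fell in experiment 1 (adjusted p = 0.00679 and 0.00466), and both calls were lost without AdCL DC 8 (adjusted p = 0.0576 and 0.0765).

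Inmt, a methyltransferase found in lung fibroblasts, was the member with the sharpest contrast. It was at 18.8, 60.8 and 18.0 CPM in AdCL of experiment 1 and had no count in AdTGFb1 DC 14, 52 and 54. Levels in experiment 3 were 6.15, 14.0 and 9.72 CPM in AdCL and 0.628, 3.19 and 9.30 CPM in AdTGFb1, which overlapped. Against a floor of 3 counts per library it was at least 150.6-fold lower with AdTGFb1 in experiment 1 (adjusted p = 1.77e-06), and AdTGFb1 libraries of experiment 3 were at least 20.2-fold higher than those of experiment 1 (adjusted p = 0.000343). Experiment 3 gave a log2 fold change of -1.18 ± 0.66 (adjusted p = 0.369). The call over both experiments (adjusted p = 0.0315) was lost with the term for sex and without AdTGFb1 DC 14, 52 or 54 (adjusted p from 0.0741 to 0.178).

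Pdgfra, the growth factor receptor of lung fibroblasts, was at 11.5, 31.8 and 18.2 CPM in AdCL and 0, 1.65 and 1.24 CPM in AdTGFb1 of experiment 1. Experiment 3 gave levels of 2.12, 7.16 and 2.35 CPM in AdCL and 1.19, 5.51 and 2.05 CPM in AdTGFb1. It fell by 4.39 ± 0.90 in experiment 1 (adjusted p = 0.000936) and did not pass in experiment 3 (adjusted p = 0.86). Acta2, the smooth muscle actin of contractile cells and myofibroblasts, was at 6.82, 30.3 and 16.3 CPM in AdCL and 3.03, 7.59 and 6.46 CPM in AdTGFb1 of experiment 1. Its experiment 3 levels were 0, 4.23 and 0.134 CPM in AdCL and 0.209, 4.87 and 1.51 CPM in AdTGFb1, and no vector contrast passed (adjusted p = 0.248 and 0.847 in experiments 1 and 3). The low value in AdCL DC 943 and the high value in DC 944 show the spread among controls.

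The last 3 mesenchymal members were low. Tagln, a smooth muscle protein whose exons overlap Pcsk7, ran from 0.419 to 16.1 CPM. Dcn, the proteoglycan decorin of fibroblasts, had counts in 6 libraries and was highest in AdCL DC 9 at 9.02 CPM. Lum, the related lumican, had counts in 2 libraries, AdTGFb1 DC 52 with 1.29 CPM and AdCL DC 944 with 0.0814 CPM. Tagln and Dcn passed in no comparison, and Lum was not tested.

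Of the surfactant genes, Sftpc, a surfactant protein made by alveolar type 2 cells, was at 10.1, 22.3 and 21.7 CPM in AdCL and 1.14, 6.73 and 2.54 CPM in AdTGFb1 of experiment 1. The libraries of experiment 3 held 12.6, 44.5 and 26.2 CPM in AdCL and 19.3, 52.1 and 35.7 CPM in AdTGFb1. The AdTGFb1 libraries of experiment 1 lay below all 9 others, a pattern seen for 3.71% of all genes, and both vectors of experiment 3 overlapped with the controls of experiment 1. Sftpc fell by 2.37 ± 0.54 in experiment 1 (adjusted p = 0.00223) and had 0.36 ± 0.49 in experiment 3 (adjusted p = 0.781). AdTGFb1 libraries of experiment 3 were higher than those of experiment 1 by 3.35 ± 0.55 (adjusted p = 0.000446).

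Sftpa1, a collectin of surfactant, was at 6.00, 7.66 and 6.23 CPM in AdCL and 2.58, 0 and 1.38 CPM in AdTGFb1 of experiment 1. Values in experiment 3 were 7.02, 18.7 and 8.58 CPM in AdCL and 5.23, 12.7 and 14.9 CPM in AdTGFb1, and again the AdTGFb1 libraries of experiment 1 were the lowest 3. Sftpb, the surfactant protein that spreads the lipid film, was at 0.620, 10.6 and 8.83 CPM in AdCL and 0, 1.22 and 0.138 CPM in AdTGFb1 of experiment 1, and in experiment 3 at 1.73, 7.82 and 5.23 CPM in AdCL and 6.77, 5.67 and 7.13 CPM in AdTGFb1. Both fell in experiment 1 (adjusted p = 0.033 and 0.0121) and both were higher in AdTGFb1 of experiment 3 than of experiment 1 (adjusted p = 0.019 and 0.0314). The fall of Sftpa1 was lost with the term for sex and without AdCL DC 7, 8 or 9 or AdTGFb1 DC 52 or 54 (adjusted p from 0.0514 to 0.467). That of Sftpb was lost without AdTGFb1 DC 54 (adjusted p = 0.0528). The call between AdTGFb1 libraries was lost for Sftpa1 without AdTGFb1 DC 54 or 956 (adjusted p = 0.0637 and 0.0815). For Sftpb it was lost with the term for sex and without AdTGFb1 DC 14, 54 or 956 (adjusted p from 0.0781 to 0.123).

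Among secreted airway products, Scgb1a1, the club cell secretoglobin, was at 8.17, 315 and 33.8 CPM in AdCL and 10.2, 0.931 and 0.275 CPM in AdTGFb1 of experiment 1. Experiment 3 showed it at 18.8, 26.1 and 17.9 CPM in AdCL and 12.8, 9.66 and 6.22 CPM in AdTGFb1. AdCL DC 8 alone held far more than any other library, and in experiment 1 the vectors overlapped. In experiment 3 all AdTGFb1 libraries were below all controls, which held for 12.9% of all genes, and the test was not passed (adjusted p = 0.539). Scgb1a1 fell by 4.99 ± 0.98 in experiment 1 (adjusted p = 0.000644, 0.0693 with the term for sex) and by 3.01 ± 0.94 over both (adjusted p = 0.0327). The latter was lost with the term for sex and without AdCL DC 8 or AdTGFb1 DC 14, 52 or 54 (adjusted p from 0.0609 to 0.13).

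Cxcl15, the lungkine made by lung epithelium, was at 2.79, 8.96 and 2.70 CPM in AdCL and 0.454, 0.0716 and 0 CPM in AdTGFb1 of experiment 1. Levels in experiment 3 were 3.75, 7.49 and 5.90 CPM in AdCL and 0.349, 1.52 and 1.39 CPM in AdTGFb1. All AdTGFb1 libraries were below all controls of their experiment, as for 21.6% of all genes in experiment 1 and 12.9% in experiment 3. The fall of Cxcl15 in experiment 1 passed (adjusted p = 0.00598) but not with the term for sex (adjusted p = 0.223). Over both, Cxcl15 fell by 3.45 ± 0.86 (adjusted p = 0.00858). Within experiment 3 its fold change of -2.39 ± 1.05 did not pass (adjusted p = 0.219).

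Of the alveolar type 1 genes, Ager, the receptor RAGE at the base of these cells, was at 23.2, 73.8 and 37.6 CPM in AdCL and 5.53, 1.22 and 2.89 CPM in AdTGFb1 of experiment 1. Experiment 3 gave levels of 6.35, 11.4 and 3.69 CPM in AdCL and 13.2, 11.9 and 4.71 CPM in AdTGFb1. It was the only epithelial member with all 3 controls of experiment 1 above the other 9 libraries, as 8 endothelial members and 8.18% of all genes had. It fell by 3.80 ± 0.57 (adjusted p = 3.78e-05) in experiment 1, with 0.48 ± 0.52 in experiment 3 (adjusted p = 0.712). Hopx, a homeodomain protein of these cells, was at 13.6, 24.0 and 26.3 CPM in AdCL and 15.3, 25.4 and 22.4 CPM in AdTGFb1 of experiment 1. Its experiment 3 levels were 14.3, 8.06 and 14.6 CPM in AdCL and 5.58, 12.2 and 5.62 CPM in AdTGFb1. No vector contrast of Hopx passed. Between AdTGFb1 libraries it was lower in experiment 3 by 1.43 ± 0.40 (adjusted p = 0.0296), a call lost without AdTGFb1 DC 52, 54, 954 or 956 (adjusted p from 0.0919 to 0.148).

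Of the junction genes, Cdh1, E-cadherin, was the only one of the 46 members called higher with AdTGFb1 in experiment 1. It was at 62.0, 50.4 and 52.3 CPM in AdCL and 123, 252 and 136 CPM in AdTGFb1 of experiment 1. The libraries of experiment 3 held 38.7, 39.4 and 33.9 CPM in AdCL and 22.5, 35.0 and 27.4 CPM in AdTGFb1. The AdTGFb1 libraries of experiment 1 were above all 9 others, as for 3.54% of all genes. Cdh1 rose by 1.63 ± 0.24 in experiment 1 (adjusted p = 2.2e-05) and had -0.40 ± 0.23 in experiment 3 (adjusted p = 0.392), with a difference of -2.04 ± 0.33 (adjusted p = 0.000672). The sums of the 8 alveolar macrophage genes were also highest in AdTGFb1 of experiment 1, at 1187 to 2404 CPM. They were 74.2 to 187.9 CPM in AdCL of experiment 1. In experiment 3 they were 244.2 to 686.5 CPM in AdCL and 95.3 to 139 CPM in AdTGFb1. Only 2 of the 8 genes had every AdTGFb1 library of experiment 1 above the 9 others. Between controls the order was opposite to that of Cdh1. The mean sum was 134.7 CPM in experiment 1 and 424 CPM in experiment 3, against 54.9 and 37.3 CPM for Cdh1. In experiment 1, 4 of these 8 rose, among them Chil3 and Atp6v0d2, against 10.6% of all genes. Fabp1 was at 0 in AdTGFb1 DC 14 and 54. The part of such cells in the level of Cdh1 was not tested.

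Epcam, an adhesion molecule of epithelium and of some DCs, was at 19.3, 17.7 and 20.6 CPM in AdCL and 25.5, 28.5 and 17.0 CPM in AdTGFb1 of experiment 1. Values in experiment 3 were 18.8, 11.2 and 17.2 CPM in AdCL and 12.4, 18.2 and 7.19 CPM in AdTGFb1. Its groups overlapped and it passed in no comparison, with fold changes of 0.30 ± 0.36 in experiment 1 and -0.33 ± 0.36 in experiment 3. Cldn18, a claudin of lung epithelium, was at 2.17, 15.2 and 13.2 CPM in AdCL and 2.27, 1.72 and 0.275 CPM in AdTGFb1 of experiment 1, where it fell (adjusted p = 0.0279), and in experiment 3 at 1.54, 4.64 and 1.14 CPM in AdCL and 2.37, 7.03 and 1.99 CPM in AdTGFb1. The call was lost with the term for sex and without AdCL DC 8 or 9 or AdTGFb1 DC 52 or 54 (adjusted p from 0.0587 to 0.361).

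The remaining 6 epithelial members passed in no comparison. Muc1, a membrane mucin, ran from 0.859 to 17.1 CPM and was below all controls in AdTGFb1 of experiment 3, as were 12.9% of all genes. Aqp5, a water channel, reached at most 4.38 CPM and Sftpd, a surfactant collectin, 4.28 CPM. Krt18, a keratin of simple epithelia, reached 2.79 CPM and its partner Krt8 2.88 CPM. Nkx2-1, the transcription factor of lung epithelium, had counts in 7 libraries with a highest value of 5.77 CPM in AdCL DC 8. Muc1 had a higher mean level than Cxcl15, Cldn18 and Sftpb, which were called. In all, 12 of the 46 members passed in none of the 6 comparisons: Emcn, Eng, Dcn, Lum, Tagln, Sftpd, Epcam, Krt8, Krt18, Muc1, Aqp5 and Nkx2-1.

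Levels between genes were compared as CPM per kilobase of exon, averaged over the 12 libraries. Scgb1a1 led with 80.6 CPM per kb, a value carried by AdCL DC 8, followed by Acvrl1 with 22.1, Sftpc with 20.5, Cdh1 with 15.9, Eng with 14.3 and Mgp with 13.8 CPM per kb. Cdh5 and Hopx followed with nearly equal levels, 10.4 and 10.3 CPM per kb. Inmt, at 7.33, and Sparc, at 6.77, led the other mesenchymal members. The collagens Col3a1, Col1a1 and Col1a2 were at 2.68, 2.17 and 1.02 CPM per kb. Lum, with 0.0467 CPM per kb, was lowest. This order pools 4 groups and differed between them. Scgb1a1 led in both control groups, with 250.2 CPM per kb in experiment 1 and 43.97 in experiment 3. Cdh1 led in AdTGFb1 of experiment 1 with 37.3 CPM per kb, where Scgb1a1 was at 7.95, and Sftpc led in AdTGFb1 of experiment 3 with 34.5 CPM per kb. Cdh5 was at 29.3 CPM per kb in AdCL and 2.65 in AdTGFb1 of experiment 1.

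In some groups 1 library was the highest for most members. AdCL DC 8 was the highest of all 12 libraries for 14 of 15 endothelial, 12 of 15 mesenchymal and 9 of 16 epithelial members, against 12.5% of all genes. Among the 3 controls of experiment 1 it was the highest for 40 of 46 members (34.5% of all genes). The median ratio of DC 8 to DC 7 was 3.44 for endothelial, 2.58 for mesenchymal and 2.54 for epithelial members, and 0.993 for the 10 CD11b DC genes. In experiment 3, AdCL DC 944 was the highest control for 35 of 46 members (33.7% of all genes) and AdTGFb1 DC 955 the highest of its group for 24 (35.4% of all genes), of which 6 were endothelial, 11 mesenchymal and 7 epithelial. In AdTGFb1 of experiment 1, DC 14 was above both others for 15 members and below both for 16. DC 52 had the highest mesenchymal sum of that group, 145.3 CPM against 66.4 and 79.1 CPM in DC 14 and 54. Its epithelial sum was also the highest, 321.6 CPM against 194.7 and 187.4 CPM. The endothelial sum was highest in DC 14, with 233 CPM against 191 and 180.3 CPM in DC 52 and 54. All 3 controls of experiment 1 were above the other 9 libraries for 8 endothelial, 5 mesenchymal and 1 epithelial member (8.18% of all genes).

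All 6 libraries of experiment 3 were female, so its vector contrast, given above, compares libraries of the same sex. In experiment 1 the only male AdTGFb1 library could be set against the male controls. AdTGFb1 DC 14 was below all 3 male controls for 14 of 15 endothelial and 12 of 15 mesenchymal members, but for 6 of 16 epithelial members, against 32.7% of all genes. Eng was the endothelial exception. With 1 library there is no test of this order.

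**Figure D4:**
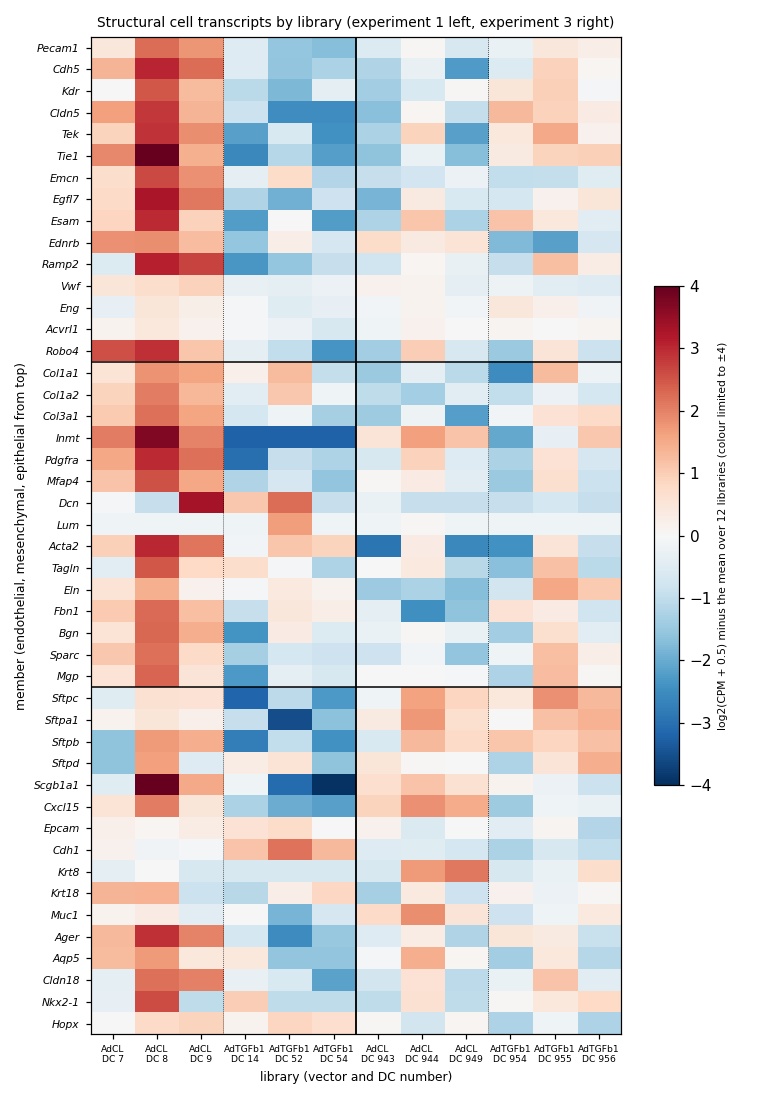
Log2(CPM + 0.5) of the 46 members (rows, endothelial on top, then mesenchymal and epithelial) minus the mean over the 12 libraries (columns), from blue (low) to red (high) and limited to 4 either way. AdCL DC 8 is red in most rows, Inmt is dark blue in AdTGFb1 DC 14, 52 and 54, and Sftpc, Sftpa1 and Sftpb are mostly red in experiment 3.

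Other markers of the same cells were counted too, from endothelial, mesenchymal and epithelial lists chosen with earlier results of these data known. Their counts are therefore no independent check on the members. The genes named here were chosen after their values were seen. Of 24 tested further endothelial genes, 13 fell in experiment 1 (median -3.56), against 14.1% of all genes. Of the same 24, 11 had a positive difference between experiments, against 3.43% of all genes, and 1, Mmrn2, rose in experiment 3, against 1.97%. Ptprb, the endothelial phosphatase VE-PTP, was at 66.9, 159 and 134 CPM in AdCL and 0.682, 4.37 and 0.756 CPM in AdTGFb1 of experiment 1. In experiment 3 Ptprb was at 17.4, 32.7 and 9.18 CPM in AdCL and 23.2, 48.1 and 15.1 CPM in AdTGFb1, again with overlap. Epas1, the hypoxia factor HIF-2α, fell by 3.53 ± 0.38 in experiment 1 (adjusted p = 6.64e-07). Flt1, a VEGF receptor that monocytes also carry, was not called for the vector in either experiment.

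Of 20 tested further mesenchymal genes, 10 fell in experiment 1 (median -2.34), and 4 had a positive difference, against the same 14.1% and 3.43% of all genes. Npnt, an integrin ligand of basement membranes, was at 21.7, 57.5 and 31.9 CPM in AdCL and 2.27, 0.358 and 3.44 CPM in AdTGFb1 of experiment 1 (adjusted p = 1.26e-05). Levels in experiment 3 were 10.1, 11.6 and 6.70 CPM in AdCL and 14.7, 23.2 and 9.84 CPM in AdTGFb1. Cthrc1, a gene of fibroblasts in fibrosis, had no count in any library. Of 12 tested further epithelial genes, 4 fell and 1 rose in experiment 1 (14.1% and 10.6% of all genes), and 2, Napsa and Ehf, fell in experiment 3 (4.46% of all genes). Ehf, an ETS factor of epithelia, was at 192, 157 and 156 CPM in AdCL and 18.9, 13.3 and 14.6 CPM in AdTGFb1 of experiment 1, and at 104, 235 and 143 CPM and 40.2, 45.2 and 21.8 CPM in experiment 3. It fell in both experiments by 3.43 ± 0.28 and 2.17 ± 0.27 (adjusted p = 2.55e-08 and 2.82e-05). In the controls of experiment 1 Epcam was at 17.7 to 20.6 CPM and Krt18 at 0.186 to 2.79 CPM. Cdh1 was at 50.4 to 62.0 CPM and Ager at 23.2 to 73.8 CPM in these controls. Scgb1a1 was above Ehf in AdCL DC 8, with 315 CPM, and below it in DC 7 and 9. Ehf was not highest in AdCL DC 8, which was the highest library for 9 of 16 epithelial members (12.5% of all genes). Which cells the Ehf RNA came from was not tested. No member was called lower in both experiments, although Ednrb missed the threshold in experiment 3 only narrowly (adjusted p = 0.0542). Krt5 and Trp63, markers of airway basal cells, each had counts in 1 library, and Cldn4, a claudin of epithelia, had none.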

How the data were processed

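The deposited table holds raw read counts per gene symbol, with a column for each library. The values are whole numbers, and their totals differ between libraries. The submitters' processing notes name, without saying what each did, STAR 2.5.0c, HTSeq, DESeq2, cutadapt 1.9.1 and Trim Galore 0.4.1, and mm9 as genome. Per the labels' protocols, libraries were poly(A)-selected and made with a directional kit. The sources used here give no strand setting or annotation for the counting, so reads of genes with overlapping exons are uncertain.

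Counts were analysed with edgeR 4.0.16 in R 4.3.3: TMM normalisation, filterByExpr with the 4 groups (13221 of 24391 genes left; 7100 had no count), the two-sided quasi-likelihood F test and Benjamini-Hochberg adjustment over all genes tested, with a call at an adjusted p under 0.05. The vectors were compared over all 12 libraries with an additive term for the experiment. A model of the 4 groups gave the other 5 comparisons. The standard error is the effect over the square root of F. Exon lengths come from the GENCODE M21 annotation and promoters from the RefSeq table. The fit was tested on simulated counts with 200 changed genes before use. The reads carry no molecular identifiers and PCR copies count as reads, so floors cover counting error only.

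The members and the lists of further markers were chosen with earlier results of these data known. In each class, values in every library are given for the 5 members with the highest mean CPM and for up to 8 further members called in any comparison, smallest adjusted p first. The rest are given by range. Alternatives were RLE size factors, DESeq2 1.42.0, no low-count filter, a term for sex read from transcripts, no term for the experiment, and leaving out each library.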

Additional observations from a re-analysis of the deposited data

Results flagged for a closer look

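For 19 members the effect of AdTGFb1 differed between the experiments by the test of the difference itself, edgeR's quasi-likelihood test adjusted over all genes. Values are experiment 3 minus experiment 1 on the log2 scale. Among endothelial members the difference was 3.41 for Pecam1, 4.82 for Cdh5, 3.73 for Kdr, 6.91 for Cldn5, 5.25 for Tek, 8.20 for Tie1, 4.60 for Egfl7 and 5.87 for Ramp2. The calls of Kdr, Cldn5, Tek and Egfl7 were lost with a term for sex, and those of Egfl7 and Ramp2 without AdCL DC 8.

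Among mesenchymal members it was 3.95 for Col3a1, 3.98 for Pdgfra, 2.89 for Mfap4, 3.17 for Eln, 3.17 for Fbn1, 3.80 for Sparc and 2.75 for Mgp. The fitted value for Inmt was 10.52, but it depends on the prior count because the gene had no count in AdTGFb1 of experiment 1. Without AdCL DC 8 the calls of Pdgfra, Mfap4, Fbn1 and Mgp were lost. Those of Mfap4, Eln and Fbn1 were lost with the term for sex. Pdgfra, Mfap4 and Mgp also lost theirs without AdTGFb1 DC 54 or 955 or AdCL DC 943 or 949. Further losses were those of Pdgfra without AdCL DC 9 or AdTGFb1 DC 956, of Mfap4 without AdCL DC 9 or AdTGFb1 DC 14, of Mgp without AdTGFb1 DC 14 or 956 or AdCL DC 944, and of Fbn1 without AdCL DC 949 or AdTGFb1 DC 14 or 954.

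Among epithelial members it was 2.73 for Sftpc, 4.28 for Ager and -2.04 for Cdh1. The call of Ager was lost with the term for sex (adjusted p = 0.0799). That of Sftpc was lost without AdCL DC 9, 943 or 949 or AdTGFb1 DC 54 or 955. Cdh1, Cdh5, Pecam1, Tie1, Col3a1, Sparc and Inmt kept their calls under the term for sex, DESeq2, RLE size factors, no filter and each left-out library.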

How the results depend on the processing

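Counts of called members moved as follows, and no call of a member changed sign under any alternative tried. With a term for sex, over both experiments 1 endothelial, 0 mesenchymal and 1 epithelial member were lower. With that term, in experiment 1 7 endothelial and 3 epithelial members were lower, and in experiment 3 1 endothelial member was lower. The difference between experiments then passed upwards for 4 endothelial and 1 epithelial member. Between controls the term left 0 endothelial, 1 mesenchymal and 0 epithelial members lower, and between AdTGFb1 libraries 1 mesenchymal member higher. With no low-count filter, over both experiments 4 mesenchymal members were lower and 1 epithelial member higher, and in experiment 3 2 endothelial members were higher, 1 endothelial and 1 epithelial member lower. Without the filter, 4 epithelial members had a positive difference, 10 endothelial and 2 epithelial members were lower between controls, and 7 endothelial, 4 mesenchymal and 5 epithelial members were higher between AdTGFb1 libraries. DESeq2 gave 1 endothelial member lower in experiment 3, 4 epithelial members with a positive difference and 10 endothelial members lower between controls.

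Leaving out each library in turn gave these ranges. Over both experiments 2 to 3 endothelial, 0 to 5 mesenchymal and 1 to 3 epithelial members were lower. In experiment 1 10 to 12 endothelial, 5 to 8 mesenchymal and 4 to 8 epithelial members were lower. In experiment 3 0 to 2 endothelial members were higher and 0 to 1 lower, and 1 to 4 mesenchymal members were higher. The difference was positive for 6 to 9 endothelial, 4 to 9 mesenchymal and 1 to 4 epithelial members. Between controls 2 to 8 endothelial, 5 to 9 mesenchymal and 1 to 2 epithelial members were lower. Between AdTGFb1 libraries 0 to 4 endothelial, 1 to 2 mesenchymal and 1 to 4 epithelial members were higher, and 1 to 2 epithelial members lower. Of the 28 calls in experiment 1, 20 were kept in every such fit and 18 with the term for sex. The cause of these shifts was not tested. No paired analysis was possible because the groups share no replicate numbers. With 3 libraries a group and members often under 5 CPM, depth and spread limit the smaller differences.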

Other observations

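Further markers not named above followed several patterns. Plvap, the diaphragm protein of fenestrated capillaries, was at 17.7, 133 and 42.9 CPM in AdCL and 5.08, 3.22 and 0.825 CPM in AdTGFb1 of experiment 1. In experiment 3 it was at 2.21, 10.5 and 4.29 CPM in AdCL and 3.00, 11.2 and 12.5 CPM in AdTGFb1. It fell by 4.41 ± 0.73 on the log2 scale in experiment 1 (edgeR, adjusted p = 0.000104). Col4a1, a basement membrane collagen, was at 75.7, 176 and 88.1 CPM in AdCL and 23.0, 23.3 and 24.7 CPM in AdTGFb1 of experiment 1. In experiment 3 it was at 7.98, 50.1 and 19.3 CPM in AdCL and 21.6, 103 and 47.1 CPM in AdTGFb1, with AdTGFb1 DC 955 the highest of its group.

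Cyp2f2, a club cell enzyme, reached 15.1 CPM in AdCL DC 8 and at most 1.79 CPM in any other library, the same library in which Scgb1a1 stood at 315 CPM. Slc34a2, the phosphate transporter of alveolar type 2 cells, was at 3.31, 7.66 and 3.44 CPM in AdCL and 1.21, 0 and 0.550 CPM in AdTGFb1 of experiment 1. In experiment 3 it was at 3.17, 2.85 and 4.49 CPM in AdCL and 8.79, 5.03 and 11.2 CPM in AdTGFb1. AdTGFb1 of experiment 3 was thus above all its controls, as for 11.5% of all genes. Of the 12 tested further epithelial genes, 0 were called higher there. These genes were chosen after their values were seen.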
